A study of Mus musculus with 12 samples.

Results

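The 10 genes described here, Ngfr, Axl, Sox9, Nes, Egfr, Twist1, Zeb1, Snai1, Snai2 and Pdgfrb, are markers and regulators of dedifferentiated and invasive states of melanoma. They were taken by name from 55487 gene identifiers, each matched one Ensembl identifier of the count table, and all 10 had enough reads to be among the 16225 genes tested. Expression was measured by bulk RNA sequencing in 12 mouse melanoma tumors. All of the tumors carry BrafCA, a Braf allele that Cre recombinase turns into its oncogenic form, and floxed Cdkn2a (BrafCA;Cdkn2af/f), a tumor suppressor locus. Of these, 6 had no Arf6 deletion (wild type) and 6 also carried floxed Arf6 (BrafCA;Cdkn2af/f;Arf6f/f, Arf6-null). Arf6 encodes a small GTPase of membrane traffic. The sources used here do not give the source of Cre, the age of the mice or whether each tumor came from its own animal. The p-values then measure only the spread between tumors, which need not be that between animals.

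Melanoma cells can move from a pigmented, MITF-driven state towards states that resemble the neural crest or mesenchymal cells. Such cells gain receptor tyrosine kinases such as AXL and EGFR or the neurotrophin receptor NGFR, and they shift the balance of the transcription factors that control epithelial-mesenchymal transition. In melanocytic cells ZEB2 and SNAI2 are linked to the differentiated state, and ZEB1 and TWIST1 to the dedifferentiated one. Several of these genes are also active in normal stroma: Pdgfrb marks pericytes and fibroblasts, Axl is made by macrophages, and Ngfr by Schwann cells. In bulk tissue, fewer cells of a type and less RNA per cell cannot be told apart.

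Library totals ranged from 21007954 to 45688253 counts. Arf6 was at 84.2 to 147 CPM (reads of a gene relative to its library's scaled total) in wild-type and at 12.2 to 22.5 CPM in Arf6-null tumors, without overlap. Libraries were numbered 1 to 6 in wild type and 19 to 24 in Arf6-null, so an effect of preparation order, if any, cannot be told apart from genotype. Y-linked transcripts were present in 3 wild-type and 5 Arf6-null tumors. Skeletal muscle markers summed to 1262 to 2051 CPM in wild-type replicates 3, 4 and 5 and to at most 166 CPM elsewhere. The melanocyte identity behind the tumor label rested on few transcripts: Mlana had 0 counts in all libraries, Tyr at most 2, Dct and Tyrp1 at most 1 and Sox10 at most 33, while Mitf was at 8.95 to 30.1 CPM.

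No member passed the test between genotypes. By edgeR's quasi-likelihood test 0 of 10 passed an adjusted p of 0.05, against 1.15% of all tested genes, and 0 of 10 had an unadjusted p under 0.05, against 23.4% of all tested genes. DESeq2 and limma-voom also called 0, against 2241 of 33133 and 931 of 16225 genes. The ranges of the genotypes overlapped for each of the 10, and did not overlap for 2.36% of tested genes (1.15% higher and 1.21% lower in Arf6-null tumors). Point estimates were positive for 6 genes and negative for 4, with a median log2 fold change of 0.19 (-0.03 over all tested genes). The precision differed widely: the 95% interval of the fold ran from 0.973 to 1.45 for Axl and from 0.109 to 1.19 for Ngfr. From here on, values given as a pair of means ± SD (n = 6 each) name the wild-type tumors first and the Arf6-null tumors second.

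**Figure D1:**
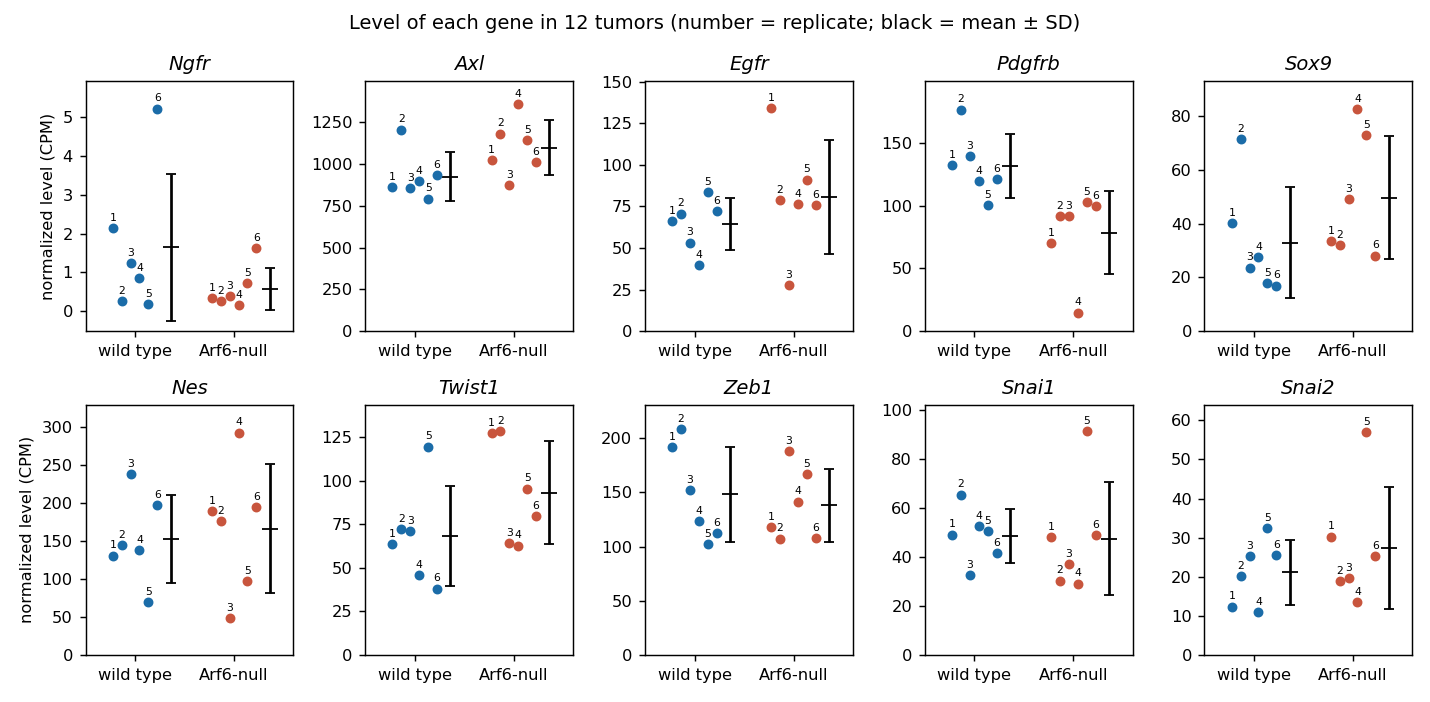
Normalized level in CPM (vertical axes, linear) of the 10 genes in 6 wild-type (blue) and 6 Arf6-null (red) tumors, 1 point per tumor with its replicate number, and the mean ± SD in black. The points of the genotypes overlap in every panel, and in that of Pdgfrb 5 of 6 Arf6-null tumors lie below the lowest wild-type tumor, at 100.4 CPM.

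Per unit of length the genes spanned a wide range, and the order was led by a receptor and a transcription factor. Dividing CPM by kilobases of annotated exon, Axl was at 201 ± 34.7 CPM per kilobase (mean ± SD over the 12 tumors) and exceeded Twist1, at 49.6 ± 18.8, in all 12 tumors without overlap. Below Twist1 the neighbors overlapped: Snai1 was at 29.6 ± 10.6, Nes at 24.9 ± 10.9, Pdgfrb at 19.2 ± 7.23, Zeb1 at 14.0 ± 3.66, Snai2 at 12.005 ± 6.11, Sox9 at 9.999 ± 5.48 and Egfr at 6.39 ± 2.35 CPM per kilobase. Snai1 exceeded Nes in 7 of 12 tumors and Nes exceeded Pdgfrb in 6 of 12. Zeb1 exceeded Snai2 in 7 of 12, and so did Snai2 exceed Sox9. The order within these pairs does not go beyond the spread. Egfr in turn exceeded Ngfr, at 0.324 ± 0.416 CPM per kilobase, in all 12 tumors. With the longest annotated transcript as the length, Zeb1 (24.7 CPM per kilobase) stood above Pdgfrb (19.4), and the other 8 genes kept their place.

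**Figure D2:**
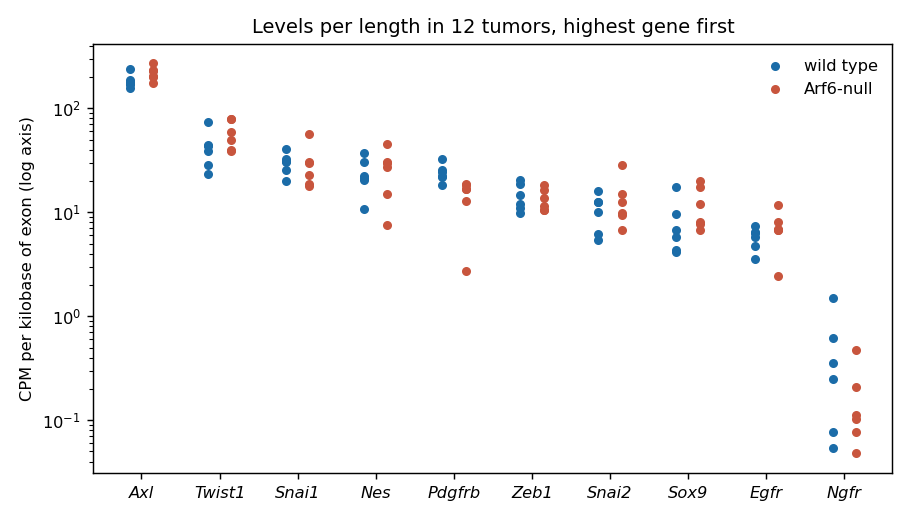
Level per length (CPM per kilobase of merged exons, log axis) of the 10 genes, highest mean on the left, with 1 point per tumor, wild type in blue and Arf6-null in red. Axl stands above all others at 157 to 270 CPM per kilobase and Ngfr below all others at 0.0479 to 1.51, and the 8 genes between them overlap with their neighbors.

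Among the receptors, Axl was the most abundant and the steadiest. AXL is a receptor tyrosine kinase of the TAM family, and its gene spans bases 25757273 to 25788705 of chromosome 7 (GRCm38, as for all positions given here). It was at 863, 1206, 854, 897, 793 and 936 CPM in wild-type replicates 1 to 6 and at 1025, 1181, 874, 1356, 1142 and 1011 CPM in Arf6-null replicates 1 to 6. Arf6-null replicate 4 was the highest and lay above all wild-type tumors, and the other 5 fell within the wild-type range. The fold was 1.19 (95% interval 0.973 to 1.45, edgeR adjusted p = 0.28). Within genotypes the SD of log2 CPM was 0.214, at the 33.4th percentile of the 500 genes nearest in level. Macrophage markers, of which 7 of 8 had a negative log2 fold change and none passed, summed to 1174 to 4185 CPM in wild-type and 1616 to 2824 CPM in Arf6-null tumors, and their part in the values of Axl was not tested.

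Axl's promoter is shown because YAP and TEAD, drivers of invasive melanoma programs, act on this gene in other cancers. Both strands were searched for GGAATG, the core of the TEAD motif, and the capitals mark the 1 match. The window is the 250 bases before the RefSeq start on the minus strand, chr7:25788734-25788983 of GRCm38.p6, and the match starts 233 bases before that start. The same letters occur in 12.6% of 32851 promoter windows of this length, so a match by itself is common.
Axl: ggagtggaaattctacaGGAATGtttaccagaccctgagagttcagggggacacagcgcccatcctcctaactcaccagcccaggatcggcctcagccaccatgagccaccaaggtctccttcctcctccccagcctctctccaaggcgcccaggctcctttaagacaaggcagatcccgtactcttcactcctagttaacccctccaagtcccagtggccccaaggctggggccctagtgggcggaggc

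Pdgfrb, the platelet-derived growth factor receptor beta, had the smallest p of the 10. The gene lies on chromosome 18. It was at 132, 176, 139, 119.6, 100.4 and 121 CPM in wild-type replicates 1 to 6 and at 70.0, 91.3, 91.8, 14.9, 103 and 99.7 CPM in Arf6-null replicates 1 to 6. Arf6-null replicate 4 was far below all others, 4 more Arf6-null tumors lay below the wild-type minimum, and only replicate 5 exceeded it. The fold was 0.597 (95% interval 0.351 to 1.01, edgeR adjusted p = 0.226), or -0.74 ± 0.35 (SE) as a log2 fold change. Without Arf6-null replicate 4 the log2 fold change was -0.53 (edgeR adjusted p = 0.127).

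Markers of mural, fibroblast and endothelial cells mostly had the same sign as Pdgfrb. That sign was not particular to them: all 8 skeletal muscle, all 5 tested Schwann cell and 7 of 8 macrophage markers were negative too. All 9 mural cell markers had a negative log2 fold change and none passed. Their sum ranged from 201 to 654 CPM in wild-type and from 62.6 to 212 CPM in Arf6-null tumors, with Rgs5, a pericyte gene, at 64.6 ± 29.4 and 40.3 ± 23.8 CPM and Des, which muscle also makes, at 158 ± 204 and 13.3 ± 10.5 CPM. In the muscle-rich wild-type replicates 5, 4 and 3, Des alone was 544 of 654, 186 of 430 and 159 of 478 CPM. The part of muscle in these sums was not tested. Of 8 fibroblast markers 7 were negative and none passed, and their sum was 4620 to 14422 CPM and 1072 to 9159 CPM. Of 8 endothelial markers 7 were negative and none passed, with sums of 186 to 459 CPM and 95.2 to 366 CPM. Arf6-null replicate 4, lowest for Pdgfrb, was also the lowest of the 12 tumors for each of these 3 sums. No defining marker of the 3 lists was at 0. The part of these cells in the values of Pdgfrb was not tested.

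Egfr encodes the epidermal growth factor receptor, on chromosome 11 at 16752203 to 16918158. It was at 66.1, 70.7, 53.3, 39.8, 83.4 and 72.4 CPM in wild-type replicates 1 to 6 and at 134, 78.6, 27.5, 76.2, 91.1 and 75.8 CPM in Arf6-null replicates 1 to 6. The highest and the lowest of the 12 tumors were both Arf6-null, replicates 1 and 3. The fold was 1.25 (95% interval 0.799 to 1.96, edgeR adjusted p = 0.543).

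Ngfr, the p75 neurotrophin receptor and a neural crest stem cell marker, was scarce. Its gene is on chromosome 11, from 95568818 to 95587735. It had 54, 8, 29, 26, 5 and 150 counts in wild-type replicates 1 to 6 and 7, 11, 13, 5, 32 and 62 in Arf6-null replicates 1 to 6. These equal 2.15, 0.265, 1.24, 0.854, 0.187 and 5.20 CPM, and 0.352, 0.266, 0.386, 0.165, 0.723 and 1.62 CPM. Wild-type replicate 6 was the highest, and 5 of 6 Arf6-null tumors lay within the wild-type range. The fold was 0.360 (95% interval 0.109 to 1.19, edgeR adjusted p = 0.283), and the log2 fold change of -1.47 was -0.66 without wild-type replicate 6. Schwann cell markers, of which 5 of 8 could be tested, were all negative and none passed, with sums of 9.78 to 38.5 CPM in wild-type and 4.52 to 25.3 CPM in Arf6-null tumors. Sox10, which defines that lineage, had at most 33 counts and 0 in the lowest library. The part of Schwann cells in the values of Ngfr was not tested.

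The ligands of these receptors gave no call either. In the EGF receptor list 0 of 10 tested genes passed, 5 were positive and 5 negative. Ereg and Areg, which encode the ligands epiregulin and amphiregulin, were at 68.2 ± 49.4 and 182 ± 79.1 CPM and at 21.8 ± 11.6 and 77.8 ± 66.0 CPM (edgeR adjusted p = 0.0986 and 0.101). The ligand genes Tgfa and Egf had the opposite sign at a lower count: Tgfa was at 1.28 ± 0.437 and 0.376 ± 0.332 CPM and Egf at 1.56 ± 0.983 and 0.635 ± 0.151 CPM (edgeR adjusted p = 0.0887 and 0.0968). Gas6, the ligand of AXL, was at 102 ± 54.5 and 42.2 ± 17.3 CPM (edgeR adjusted p = 0.0916), and 0 of 4 genes of its list passed. Pros1, a ligand gene of the TAM family, was at 188 ± 68.1 and 125 ± 47.7 CPM. The sister receptors Tyro3 and Mertk were at 41.0 ± 8.62 and 50.7 ± 9.38 CPM and at 65.2 ± 32.2 and 70.1 ± 13.2 CPM.

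All 5 PDGF genes beside Pdgfrb had negative log2 fold changes, with a median of -0.64, and none passed. Pdgfra, the alpha receptor, was at 1045 ± 242 and 591 ± 282 CPM, Pdgfb at 18.3 ± 3.60 and 12.3 ± 3.88 CPM, Pdgfc at 43.6 ± 23.3 and 23.3 ± 12.01 CPM and Pdgfd at 13.6 ± 6.30 and 8.70 ± 7.47 CPM. Pdgfra is also 1 of the 8 fibroblast markers, 7 of which were negative, and the part of fibroblasts in its values was not tested. In the neurotrophin list 0 of 6 tested genes passed. Sort1, a co-receptor of NGFR for the proneurotrophins, was at 11.8 ± 5.91 and 6.51 ± 2.69 CPM. Bdnf, a ligand, was at 19.7 ± 10.5 and 12.7 ± 7.86 CPM, and Bex3, an adaptor that binds NGFR, at 86.7 ± 15.99 and 95.5 ± 9.54 CPM.

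**Figure D3:**
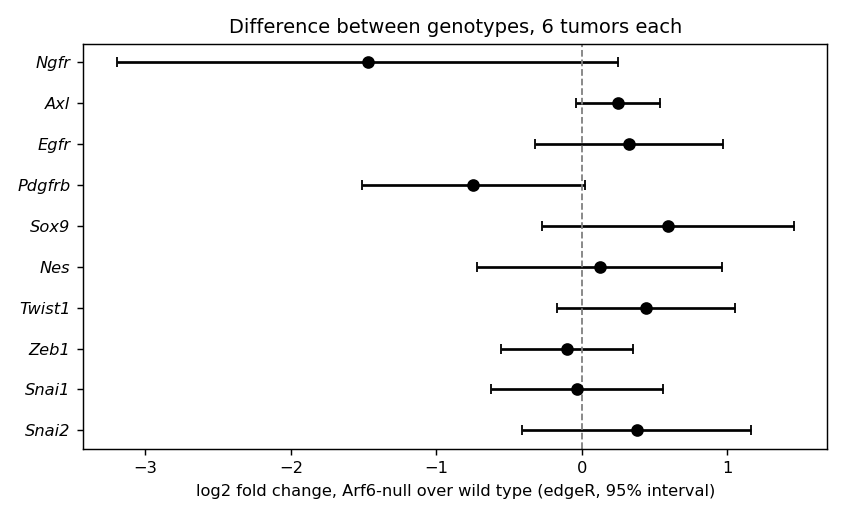
Log2 fold change of Arf6-null over wild type (horizontal axis) for each of the 10 genes, with points for the edgeR estimate and bars for its 95% interval. All 10 intervals include 0. That of Ngfr, from -3.20 to 0.25, is the widest, and that of Axl, from -0.04 to 0.54, the narrowest.

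The neural crest members varied widely among tumors of the same genotype. Sox9, a transcription factor that opposes SOX10 in melanoma, lies on chromosome 11 at 112782224 to 112787760. It was at 40.1, 71.5, 23.6, 27.7, 17.8 and 17.0 CPM in wild-type replicates 1 to 6 and at 33.6, 32.2, 49.1, 82.6, 72.8 and 28.1 CPM in Arf6-null replicates 1 to 6. Wild-type replicate 2 stood with Arf6-null replicates 4 and 5 at the top. The fold was 1.51 (95% interval 0.829 to 2.75, edgeR adjusted p = 0.388), and the log2 fold change of 0.59 depended on the tumors and covariates used. It was 0.98 without wild-type replicate 2 (edgeR adjusted p = 0.103), 0.22 without the 3 wild-type tumors richest in muscle markers, 0.22 after adjustment for Y-linked expression and 0.23 after adjustment for the muscle score.

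Nes, which encodes the intermediate filament nestin of neural progenitors, lies on chromosome 3 at 87971078 to 87980451. It was at 130.4, 144, 237, 138, 69.3 and 197 CPM in wild-type replicates 1 to 6 and at 189, 176, 48.1, 292, 96.6 and 195 CPM in Arf6-null replicates 1 to 6. Arf6-null tumors held both the lowest value (replicate 3) and the highest (replicate 4). The fold was 1.09 (95% interval 0.607 to 1.95, edgeR adjusted p = 0.875).

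Other neural crest genes gave no call in 13 tested of 19 listed, 6 positive and 7 negative. Tfap2a, a crest and melanocyte transcription factor, was at 57.3 ± 19.8 and 82.9 ± 15.7 CPM (edgeR adjusted p = 0.192), and the adhesion gene L1cam at 2.79 ± 0.875 and 1.64 ± 0.560 CPM. Rxrg, a retinoid receptor of the neural crest-like melanoma state, was at 0.474 ± 0.267 and 0.975 ± 0.689 CPM, and the transcription factor gene Ets1 at 119 ± 27.9 and 95.7 ± 10.8 CPM.

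The transition factors made up the last group. Twist1, a basic helix-loop-helix factor on chromosome 12 at 33957671 to 33959829, was at 63.5, 72.3, 71.3, 45.8, 119.6 and 38.1 CPM in wild-type replicates 1 to 6 and at 127, 128, 64.4, 62.8, 95.4 and 79.8 CPM in Arf6-null replicates 1 to 6. Wild-type replicate 5 stood apart from the other wild-type tumors and came close to Arf6-null replicates 1 and 2, which were the highest. The fold was 1.36 (95% interval 0.890 to 2.08, edgeR adjusted p = 0.363). Twist2, its close relative, was at 76.0 ± 27.2 and 133 ± 34.6 CPM (edgeR adjusted p = 0.086).

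Zeb1, a zinc finger repressor of E-cadherin on chromosome 18, was at 192, 208, 152, 123, 102 and 113 CPM in wild-type replicates 1 to 6 and at 118, 107, 188, 141, 167 and 107 CPM in Arf6-null replicates 1 to 6. Both genotypes covered nearly the same range. The fold was 0.931 (95% interval 0.679 to 1.28, edgeR adjusted p = 0.803).

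Snai1 and Snai2 encode SNAIL and SLUG, zinc finger repressors that bind E-boxes. Snai1, on chromosome 2 at 167538195 to 167542814, was at 49.1, 65.5, 32.5, 52.4, 50.6 and 41.6 CPM in wild-type replicates 1 to 6 and at 48.1, 30.4, 37.0, 29.2, 91.3 and 48.9 CPM in Arf6-null replicates 1 to 6. Snai2, on chromosome 16 at 14705852 to 14709385, was at 12.4, 20.2, 25.3, 10.9, 32.4 and 25.5 CPM and at 30.2, 18.9, 19.7, 13.5, 57.0 and 25.2 CPM in the same order. Arf6-null replicate 5 was the highest of the 12 tumors for both genes, and Arf6-null replicates 2 and 4 were the lowest for Snai1. The folds were 0.977 (95% interval 0.648 to 1.47, edgeR adjusted p = 0.953) for Snai1 and 1.30 (95% interval 0.752 to 2.25, edgeR adjusted p = 0.561) for Snai2.

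Snai1's promoter is shown because SNAIL binds E-boxes, its own promoter included, and the letters it prefers are there. Both strands were searched for CACCTG, and the capitals mark the 1 match, which starts 126 bases before the RefSeq start. The window is chr2:167537945-167538194 of GRCm38.p6 on the plus strand. Of the 6 members with a window in the RefSeq table only Snai1 had this E-box, and 17.2% of 32851 windows had it. The AP-1 motif TGANTCA was in none of the 6 and in 6.75% of all windows.
Snai1: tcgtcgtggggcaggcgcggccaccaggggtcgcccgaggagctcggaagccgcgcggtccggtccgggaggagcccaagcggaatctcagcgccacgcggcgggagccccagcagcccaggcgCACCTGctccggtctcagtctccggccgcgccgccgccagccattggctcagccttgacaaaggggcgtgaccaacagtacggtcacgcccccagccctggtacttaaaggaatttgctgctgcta

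In the lists around these factors no gene passed. Of 8 other transition factors tested, 3 were positive and 5 negative, with Foxc2 at 20.2 ± 8.73 and 33.6 ± 10.3 CPM, Tcf4 at 522 ± 153 and 359.8 ± 94.6 CPM and Prrx1 at 459 ± 68.9 and 395 ± 87.6 CPM. Of 14 mesenchymal effector genes 11 were negative. The matrix cross-linking enzymes Loxl2 and Lox were at 78.0 ± 66.8 and 19.1 ± 12.2 CPM and at 147 ± 63.8 and 70.2 ± 33.4 CPM (edgeR adjusted p = 0.106 and 0.137), the matrix protein gene Tnc at 633 ± 525 and 257 ± 196 CPM and the cadherin gene Cdh11 at 445 ± 128 and 246 ± 158 CPM. Fibroblasts make these 4 genes too, and the fibroblast sums are given above for Pdgfrb. The part of fibroblasts in the 4 values was not tested.

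Of 16 epithelial genes listed, 8 were below the filter, and of the 8 tested none passed, 4 positive and 4 negative. The keratin genes Krt8 and Krt18, which simple epithelia express, were the abundant ones, at 485 ± 516 and 953 ± 433 CPM and at 286 ± 367 and 226 ± 196 CPM, with Krt8 ranging from 3.35 CPM in wild-type replicate 4 to 1636 CPM in Arf6-null replicate 4. The other 6 tested genes had means under 8 CPM. Cdh1, the E-cadherin gene that ZEB1, SNAIL and SLUG repress, was at 3.72 ± 0.959 and 2.91 ± 0.926 CPM (edgeR adjusted p = 0.437), and Epcam at 2.58 ± 2.37 and 1.63 ± 0.769 CPM. The junction gene Ocln was at 0.324 ± 0.187 and 0.969 ± 0.904 CPM, and Grhl1, an epithelial transcription factor gene, at 0.703 ± 0.477 and 2.35 ± 2.56 CPM. In the AP-1 and TEAD list, which holds drivers and targets of invasive melanoma programs, 0 of 16 passed, 6 were positive and 10 negative. Tead4 was at 31.9 ± 14.4 and 90.6 ± 46.2 CPM and Fosl1, an AP-1 subunit gene, at 59.3 ± 26.9 and 111 ± 31.7 CPM (edgeR adjusted p = 0.0741 and 0.113). Ankrd1, a YAP and TEAD target also made by muscle, was at 24.2 ± 23.2 and 3.59 ± 2.41 CPM (edgeR adjusted p = 0.086), and Nfatc2, a transcription factor gene of the invasive state, at 13.7 ± 7.51 and 6.92 ± 2.62 CPM. Over the 9 lists edgeR and limma-voom tested 84 genes and called 0 and 3, against 186 and 931 of all 16225 genes. DESeq2, run with no filter on 105 genes, called 12, against 2241 of all 33133 genes. In edgeR 25 of the 84 were under 0.05 before adjustment, or 29.8%, against 23.4% of all genes tested.

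Differences between tumors of the same genotype were large for most of the 10 genes. The SD of log2 CPM within genotypes was above the middle of the 500 genes nearest in level for 9 of 10, from the 76.4th percentile for Zeb1 (SD 0.383) to the 94.4th for Nes (0.785) and the 95.8th for Pdgfrb (0.787), and Axl was the exception. The percentile of Pdgfrb rests largely on Arf6-null replicate 4, since its SD was 0.271 in wild-type and 1.079 in Arf6-null tumors.

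Across these 12 tumors the 10 genes showed no common direction of variation. Deviations of log2 CPM from the genotype mean were correlated over the 12 tumors for all 45 pairs, 23 of which were positive and 22 negative, with a median r of 0.06. No pair passed after Benjamini-Hochberg adjustment over the 45, and 2 had an unadjusted permutation p under 0.05. The closest pair was Sox9 and Zeb1 (Pearson r = 0.831, permutation p = 0.00335, adjusted p = 0.151; Spearman rho = 0.839, permutation p = 0.00232, adjusted p = 0.104). Its r was 0.909 within wild-type and 0.714 within Arf6-null tumors (6 tumors each), and 0.866 without the 2 tumors farthest from the median of Sox9. Snai1 and Snai2 had r = 0.535 (permutation p = 0.103, adjusted p = 0.806; rho = 0.364, permutation p = 0.269, adjusted p = 0.902), which rested on few tumors: r was 0.974 within Arf6-null, -0.32 within wild-type tumors and -0.04 without the 2 tumors farthest from the median of Snai1.

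Relations with marker scores, the mean log2 CPM of a marker list, were taken for the 10 genes and 9 lists in the same way. None of the 90 passed after adjustment and 11 had an unadjusted permutation p under 0.05. Sox9 was lower where the Schwann cell score was higher (r = -0.86, permutation p = 0.00183, adjusted p = 0.0819; rho = -0.87, permutation p = 0.00127, adjusted p = 0.0666), with r of -0.85 within wild-type and -0.87 within Arf6-null tumors, and -0.80 without the 2 tumors farthest from the median of Sox9. This was not particular to Schwann cells: r with Sox9 was negative for all 9 scores, among them -0.79 for melanocyte genes, -0.65 for keratinocyte and -0.64 for leukocyte markers (unadjusted permutation p = 0.00352, 0.00316 and 0.0365). Some scores rest largely on scarce genes: 5 of 8 Schwann cell, 3 of 14 melanocyte and 3 of 8 keratinocyte genes could be tested. Foxd3, in the Schwann cell list, is also a neural crest gene and ranged from 0 to 23.9 CPM. The melanocyte score spanned only -2.69 to -2.12. The keratinocyte score was far higher in Arf6-null replicate 6 (0.731) than elsewhere. Ngfr went with fibroblast markers (r = 0.738, permutation p = 0.00364, adjusted p = 0.0819; rho = 0.734, permutation p = 0.00815, adjusted p = 0.147; r = 0.744 without the 2 farthest tumors), at 0.866 within wild-type and 0.753 within Arf6-null tumors. Pdgfrb went with endothelial markers (r = 0.701, permutation p = 0.0058, adjusted p = 0.104; rho = 0.643, permutation p = 0.0119, adjusted p = 0.178; r = 0.815 without the 2 farthest tumors), at 0.774 within wild-type and 0.781 within Arf6-null tumors. With the markers of the cells that Pdgfrb is known to mark, the relation rested on Arf6-null tumors: r was 0.621 for fibroblast markers (-0.19 within wild type, -0.09 without the 2 farthest tumors, unadjusted permutation p = 0.104) and 0.461 for mural markers (-0.03 within wild type, 0.144 without the 2 farthest tumors, unadjusted permutation p = 0.205). Zeb1 shared the Sox9 pattern in part: its r was -0.79 for Schwann cell, -0.74 for melanocyte and -0.57 for keratinocyte markers (unadjusted permutation p = 0.00701, 0.00977 and 0.0338). Unlike for Sox9, r was positive for fibroblast (0.035) and endothelial markers (0.184), and it was negative for the rest (unadjusted permutation p = 0.912 and 0.567 for these 2). Axl had r = -0.68 with fibroblast markers (unadjusted permutation p = 0.02, r = -0.31 without the 2 farthest tumors) and -0.22 with macrophage markers (unadjusted permutation p = 0.511). Ngfr had r = 0.616 with mural markers (unadjusted permutation p = 0.041, r = 0.35 without the 2 farthest tumors). With Schwann cell markers its r was 0.383 (unadjusted permutation p = 0.291, r = -0.05 without the 2 farthest tumors).

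**Figure D4:**
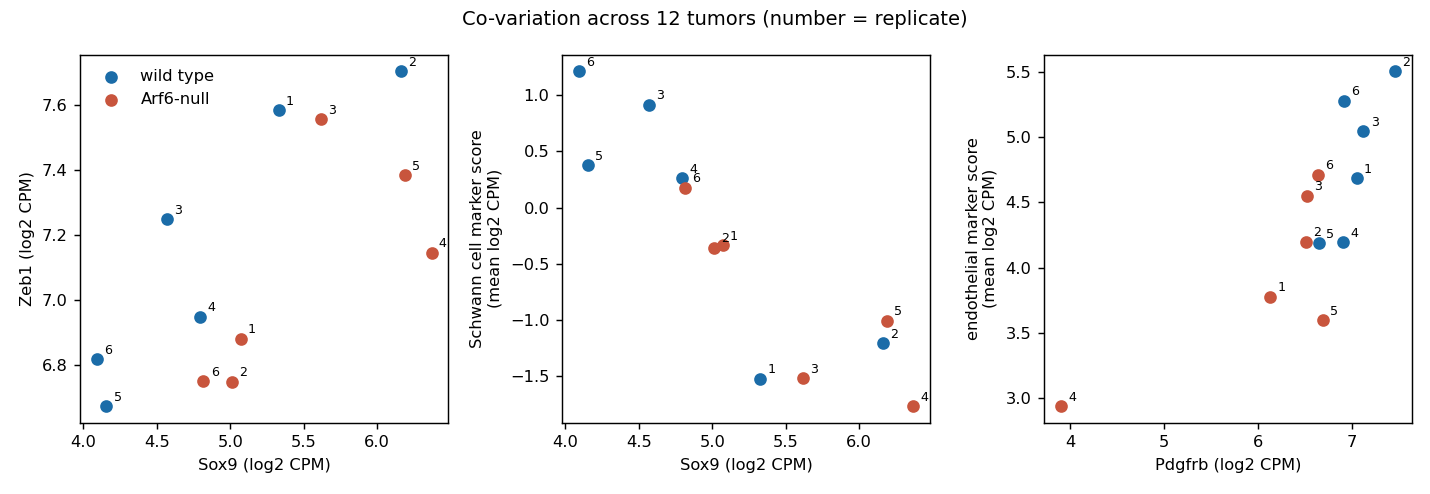
Left, Zeb1 against Sox9; middle, the Schwann cell marker score against Sox9; right, the endothelial marker score against Pdgfrb, all in log2 CPM (scores are means of log2 CPM) with 1 point per tumor, wild type in blue, Arf6-null in red, and replicate numbers beside the points. Zeb1 is high where Sox9 is high and the Schwann cell score is low there, and Arf6-null replicate 4 lies apart at the lower left of the right panel.

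The genes most similar in pattern were sought among 12832 tested protein-coding genes at 1 CPM or more, by the r of the same deviations over 12 tumors, as a description without a test. For Pdgfrb these were Enah (0.974), Stk39 (0.953) and Plcd1 (0.9498), and for Ngfr Olfml3 (0.928), D3Ertd751e (0.915) and Lrrc15 (0.912). Axl was closest to Micall2 (0.953), Cdr2l (0.934) and Vps37b (0.904), and Egfr to Shroom2 (0.947), Natd1 (0.929) and Acvr1 (0.918). For Sox9 they were Mbtps2 (0.9503), Selenoi (0.943) and Ccsap (0.940), and for Nes Gpr149 (0.920), Sft2d1 (0.913) and Fam171a1 (0.908). Zeb1 was closest to Zfp955b (0.916), Chm (0.913) and Gnai3 (0.903), and Twist1 to Clock (0.896), Agpat4 (0.885) and Fbxw7 (0.877). Snai1 was closest to Cep97 (0.884) and Cpeb2 (0.874), and Snai2 to Narf (0.916), Kmt2e (0.909) and Foxo1 (0.906). No gene named here was close to more than 1 member in this way, and none of them was itself a member.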

How the data were processed

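RNA of 12 tumors was sequenced after stranded mRNA library preparation, per the labels' protocols. STAR 2.7.3a, featureCounts 1.6.3, DESeq2 1.26.0 and GRCm38 (mm10) are named in the submitters' processing notes. For the strand setting, multi-mapping rule and annotation release nothing is given in the sources used here. Deposited values are raw counts of reads per Ensembl gene. Symbols, positions and exon lengths came from GENCODE M21 (GRCm38), and promoters, held for 6 of the 10 members, from RefSeq.

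Genes were filtered with filterByExpr (minimum count 10), TMM-scaled, and tested over all 12 tumors with edgeR 4.0.16 in R 4.3.3 (quasi-likelihood, robust, Benjamini-Hochberg over 16225 genes, threshold 0.05). The procedure was tested on simulated data. A positive log2 fold change means higher in Arf6-null tumors. Log2 CPM used a prior count of 2. Correlations used 100000 permutations within genotype, two-sided. Replicate numbers follow accession order only. Beside the members and Arf6, genes were named by rule: the 4 of each pathway list with the smallest p, the 2 most abundant and any absent genes of a marker list, and the 3 nearest in pattern to each member. Some genes that the rule names are not reported here. Krt8, Krt18, Krt14 and the neural crest genes of the closing section were chosen after their values were seen. Members and lists were chosen with earlier results of these data known. Alternatives used DESeq2 1.42.0, limma 3.58.1, other scalings, filters and covariates, and left out libraries.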

Additional observations from a re-analysis of the deposited data

Results flagged for a closer look

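The values of the 10 genes and 9 marker scores were searched, in each genotype, for a tumor standing far from its 5 companions, in 38 sets of 6 values. Chance flags about 1 in 20 groups, and 3 were found here. Pdgfrb in Arf6-null replicate 4 was at 3.90 on the log2 CPM scale, against 6.13 to 6.69 in the other Arf6-null tumors. Egfr in Arf6-null replicate 3 was at 4.78, against 6.25 to 7.07. The keratinocyte marker score in Arf6-null replicate 6 was 0.731, against -2.33 to -1.64, with Krt14, a basal keratinocyte gene, at 12.6 CPM there and at most 0.0891 CPM in the other 11 tumors. None of the 10 genes had its highest or lowest value in that tumor.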

How the results depend on the processing

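No paired analysis was possible because the labels do not tie tumors of the 2 genotypes to each other. None of the 10 genes passed under any of 21 alternatives (20 for Ngfr, which fell below the stricter filter). The smallest adjusted p was 0.103, for Sox9. Ngfr, Axl, Sox9, Egfr, Twist1, Snai2 and Pdgfrb kept their sign in all of these, with log2 fold changes of -2.41 to -0.66, 0.15 to 0.34, 0.22 to 0.98, 0.12 to 0.51, 0.32 to 0.70, 0.029 to 0.65 and -1.03 to -0.53 in that order. With 1 library left out, the log2 fold change lay between -0.11 (without Arf6-null replicate 4) and 0.32 for Nes (-0.026 without wild-type replicate 5), -0.20 and 0.021 for Zeb1 (the latter without wild-type replicate 2), -0.33 and 0.075 for Snai1 and -0.84 and 0.00036 for Epcam (the latter without wild-type replicate 1). That of Snai1 was 0.071 without wild-type replicate 2, 0.068, 0.033 and 0.075 without Arf6-null replicates 2, 3 and 4, and 0.00065 with no low-count filter. The cause of these sign changes was not tested. Of the 84 other pathway genes 0 were called in the reported test. DESeq2 with no filter called 12 of 105 (among them Twist2, Ereg, Areg, Tgfa, Egf, Gas6, Fosl1, Tead4, Ankrd1, Loxl2, and Sox11, which the filter leaves out). There were 3 with limma-voom and quality weights (Twist2, Ereg and Tgfa), 7 at a threshold of 0.1 and 0 to 3 with 1 library left out (3 without wild-type replicate 2, 2 without wild-type replicate 5, 1 without Arf6-null replicate 6). Of all 16225 genes tested 186 were called, and 931 with limma-voom. DESeq2 called 2241 of 33133. The count was 30 with Y-linked expression and 19 with the muscle score as covariate, and 35 without the 3 wild-type tumors richest in muscle. It was 1359 at a threshold of 0.1. With 1 library left out it was 25 to 766, a change of over 1.5 times for each library but Arf6-null replicate 5. The background shares move with that count. Of the 45 correlations between members 0 to 1 passed with 1 library left out: Sox9 and Zeb1 passed without Arf6-null replicate 3 (r = 0.898, permutation test, adjusted p = 0.0351). Of the 90 with marker scores 0 to 3 passed, the 3 of them without Arf6-null replicate 5. Ngfr, at 5 to 150 counts per library, had the least precision.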

Other observations

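Several neural crest genes were near 0 in some tumors and well above it in others. Tfap2b, a crest transcription factor gene, was at 64.3 CPM in wild-type replicate 5, 43.3 in Arf6-null replicate 5, 13.4 in Arf6-null replicate 4 and 4.99 in wild-type replicate 3, and at most 0.854 CPM in the other 8 tumors. Pax3, which acts upstream of Mitf, was at 10.4 CPM in wild-type replicate 5, 5.45 in Arf6-null replicate 4 and 3.01 in Arf6-null replicate 1, and at most 0.194 CPM in the other 9. Foxd3, a factor of crest progenitors and of Schwann cell precursors, was at 23.9, 13.7 and 11.9 CPM in wild-type replicates 3, 5 and 6 and at 15.6, 4.45 and 14.9 CPM in Arf6-null replicates 1, 2 and 6, and at most 1.40 CPM in the other 6. Sox11 was at 11.3 CPM in wild-type replicate 4 and at most 1.58 CPM elsewhere, with no Arf6-null tumor above 0.209 CPM. The mesenchymal filament gene Vim, in contrast, was at 3347 to 6381 CPM in all 12 tumors.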
